A study of Saccharomyces cerevisiae with 15 samples.

Results

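The proteasome is the protease that destroys proteins marked with ubiquitin, and its subunits and close regulators made up 37 of the 5449 Saccharomyces cerevisiae genes measured. They were chosen by name: 14 subunits of the core particle, 19 subunits of the regulatory particle (10 of its base and 9 of its lid) and 4 helpers. Each of the 37 had 1 probe set, and all 37 had group means above the background level in every group. RNA was measured on Affymetrix Yeast Genome 2.0 arrays in 3 groups of 5 biological replicates, 15 arrays in all. Rho0 low density cells are the light fraction of a BY4741 derivative with the genotype Rho0, that is without mitochondrial DNA, so that it cannot respire. WT low density and WT high density cells are the light and the dense fraction of BY4741 itself, a haploid strain of laboratory yeast (mating type a). All cells came from YPD, a rich medium with 2% glucose at the start, shaken at 30 °C and taken on day 3, and Percoll gradients parted them by buoyant density. The labels name no agent, and a dense fraction of Rho0 was not analysed here. How the Rho0 strain was made, and whether it is 1 clone, is not given in the sources used here.

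In the core particle, rings of alpha subunits close both ends of a barrel of beta rings, and only some of the beta subunits cut proteins. The regulatory particle binds it from outside. Its base holds the Rpt ATPases, which unfold substrates and thread them into the core, and its lid holds the deubiquitinase that removes the ubiquitin chain. Yeast proteasome genes are known to be activated together by the transcription factor Rpn4, which is itself destroyed by the proteasome. In starved or quiescent yeast, proteasomes are known to leave the nucleus and gather in cytosolic storage granules.

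Values are log2 signals after RMA, which sets every array to 1 distribution, so that a difference is relative to the other transcripts. The background level, 2.56, was the 95th percentile of the means of probe sets for Schizosaccharomyces pombe. The median difference over all genes was 0.25 log2 for Rho0 low density against WT low density, -0.17 for WT low density against WT high density and 0.03 for Rho0 low density set against WT high density. The 5′ probe set of 25S ribosomal RNA read 7.75 ± 0.27 in Rho0 low density, 11.36 ± 0.45 in WT low density and 7.87 ± 0.13 in WT high density (mean ± SD, n = 5). In the same order of groups, its middle probe set read 13.28 ± 0.15, 14.17 ± 0.04 and 10.99 ± 0.32. Its 3′ probe set read 14.24 ± 0.02, 14.16 ± 0.02 and 13.94 ± 0.14. Poly-A spike-in controls averaged 9.66 ± 0.24 in Rho0 low density, 10.34 ± 0.24 in WT low density and 10.12 ± 0.20 in WT high density. The 3′ probe sets of 6 yeast control mRNAs lay above their 5′ probe sets by 3.77 ± 0.12 in Rho0 low density, 3.44 ± 0.17 in WT low density and 3.04 ± 0.20 in WT high density. The part of these control signals in the proteasome values was not tested. Of 4 genes that carry a whole or partial deletion in BY4741, URA3 and MET17 stayed under the background level with group means of at most 2.42. LEU2 read up to 2.90 and HIS3, whose deletion is partial, up to 6.09. The source of the HIS3 signal was not tested. None of 8 genes chosen on mitochondrial DNA was named in the annotation, so the Rho0 label was not checked on them.

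The first comparison set light cells without and with mitochondrial DNA against each other. Of the 37 genes 35 rose in Rho0 low density and 1 fell, at a limma adjusted p under 0.05, while 44.6% of all genes rose and 22.7% fell. The median difference over the 37 was 1.37 log2 (2.59-fold), against 0.25 for all genes. At least 2-fold rises were made by 29 of the 37, and by 17.7% of all genes. For 31 members every Rho0 array lay above every WT low density array (37.9% of all genes), and for 1 member every Rho0 array lay below (19.3% of all genes). The exceptions to the rise were RPN4, which fell, and RPN8, which did not pass. In bulk RNA, a different share of expressing cells and a different amount of RNA per cell cannot be told apart.

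**Figure D1:**
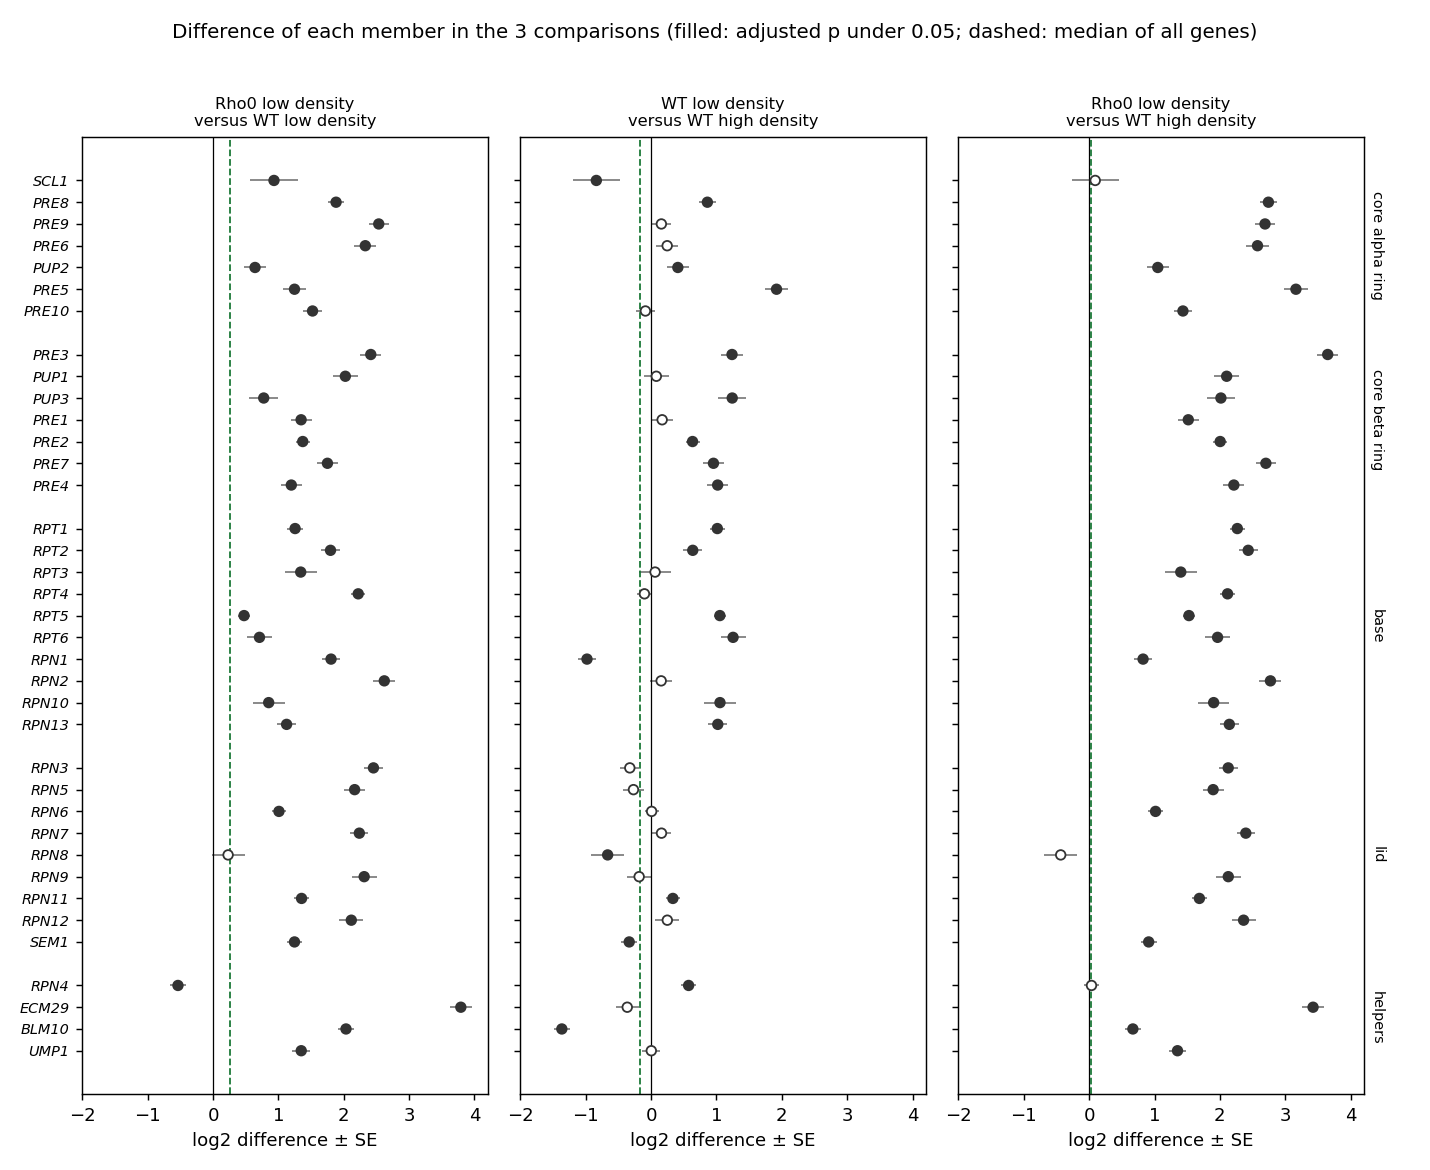
Log2 difference ± SE (x axis) of each of the 37 genes (rows, by subcomplex) in the 3 comparisons. Filled points have a limma adjusted p under 0.05, and the dashed line is the median of all 5449 genes. In the left panel 35 points are filled and to the right of 0, in the middle panel 16 are filled to the right and 5 to the left, and in the right panel 34 are filled and to the right.

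All 14 core particle genes rose in Rho0 low density against WT low density (44.6% of all genes), with differences from 0.64 log2 for PUP2 to 2.53 for PRE9 and a median of 1.45. PRE9 (YGR135W) encodes the one alpha subunit that yeast can live without. On the Rho0 low density arrays it read 9.03, 8.44, 8.58, 8.77 and 8.89, against 6.48, 6.44, 6.02, 6.0 and 6.10 on the WT low density arrays and 5.60, 6.12, 6.25, 6.21 and 6.07 on the WT high density arrays. Its Rho0 values stood clear of both WT groups, while the WT groups overlapped. The rise over WT low density was 5.79-fold (2.53 ± 0.15 log2, difference ± SE, adjusted p = 6.9e-11). PRE6 (2.33 ± 0.17) and PRE8 (1.88 ± 0.13), for other alpha subunits, rose as well. SCL1, for a further alpha subunit, rose by 0.93 ± 0.36 log2 (adjusted p = 0.0286), and it no longer passed without Rho0 low density replicate 1 (adjusted p = 0.104) or WT low density replicate 3 or 5. Its rise was also lost under quantile normalization over S. cerevisiae genes (0.59 log2, adjusted p = 0.142) and with arrays shifted to the same median of all genes (0.67 log2, adjusted p = 0.0925).

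The active sites of the core lie in 3 beta subunits. PRE3 (YJL001W), for the subunit with caspase-like activity, read 11.81, 11.38, 11.44, 11.28 and 11.10 on the Rho0 low density arrays. It read 9.38, 8.92, 8.90, 8.84 and 8.92 on the WT low density arrays and 7.46, 7.68, 8.29, 7.73 and 7.60 on the WT high density arrays. No values of any 2 groups overlapped, with Rho0 low density highest and WT high density lowest. Rho0 low density exceeded WT low density in PRE3 by 5.33-fold (2.41 ± 0.16 log2, adjusted p = 3.3e-10).

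PUP1 (YOR157C), for the subunit with trypsin-like activity, read 9.46, 8.96, 9.03, 8.98 and 8.72 on the Rho0 low density arrays. On the WT low density arrays it read 7.60, 6.86, 6.86, 6.77 and 6.94, against 7.20, 7.16, 7.21, 6.29 and 6.77 on the WT high density arrays. Only the Rho0 arrays stood apart here, by 4.07-fold from WT low density (2.02 ± 0.19 log2, adjusted p = 3.46e-08). PRE2 (YPR103W), for the subunit with chymotrypsin-like activity, was read at 12.96, 13.06, 13.15, 13.07 and 13.20 in Rho0 low density, 11.59, 11.69, 11.71, 11.75 and 11.84 in WT low density and 10.93, 11.04, 10.93, 11.15 and 11.36 in WT high density. It had the same order of groups without overlap, and its rise over WT low density was 2.59-fold (1.37 ± 0.11 log2, adjusted p = 2.7e-09). The beta subunits without an active site ran from 0.78 (PUP3) to 1.75 log2 (PRE7).

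All 10 base genes rose too (44.6% of all genes), with a median of 1.3 log2. RPN2 (YIL075C), for one of the large scaffold subunits of the base, read 8.87, 8.64, 8.24, 8.64 and 8.31 on the Rho0 low density arrays, against 5.79, 6.11, 5.77, 5.97 and 5.96 on the WT low density arrays and 6.16, 5.28, 5.64, 6.18 and 5.58 on the WT high density arrays. Rho0 was far above both WT groups, which overlapped, and its difference from WT low density was 6.15-fold (2.62 ± 0.17 log2, adjusted p = 1.74e-10). The 6 Rpt ATPase genes ran from 0.47 to 2.22 log2. RPT4 rose by 2.22 ± 0.11 log2 and RPT2 by 1.80 ± 0.15, while RPT6 rose by 0.71 ± 0.19 and RPT5 by 0.47 ± 0.10. With the arrays shifted to the same median of all genes, RPT5 no longer passed (0.21 log2, adjusted p = 0.0824).

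Among the lid genes 8 of 9 rose (44.6% of all genes), with a median of 2.12 log2, led by RPN3 (2.45 ± 0.14), RPN9 (2.31 ± 0.19) and RPN7 (2.24 ± 0.14). These 3 encode structural subunits of the horseshoe that lid proteins form. RPN11, for the deubiquitinase of the lid, rose by 1.35 ± 0.11. RPN8 (YOR261C), for the partner of Rpn11 that has no activity of its own, read 5.72, 5.10, 4.31, 5.14 and 4.5 in Rho0 low density, against 5.02, 4.71, 4.81, 4.64 and 4.43 in WT low density and 5.98, 5.71, 4.86, 5.59 and 4.80 in WT high density. The groups overlapped, and RPN8 did not pass between Rho0 low density and WT low density (0.23 ± 0.25 log2, adjusted p = 0.434). It passed as higher with arrays shifted to the same poly-A spike-in mean (0.91 log2, adjusted p = 0.00573), which gave 36 rises. Under that shift 3955 of the 5449 genes rose and the median over all genes was 0.94 log2, near the value of RPN8. RPN8 and SCL1 were also the members with the widest spread, with an SE of 0.25 log2 for RPN8 and 0.36 for SCL1.

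**Figure D2:**
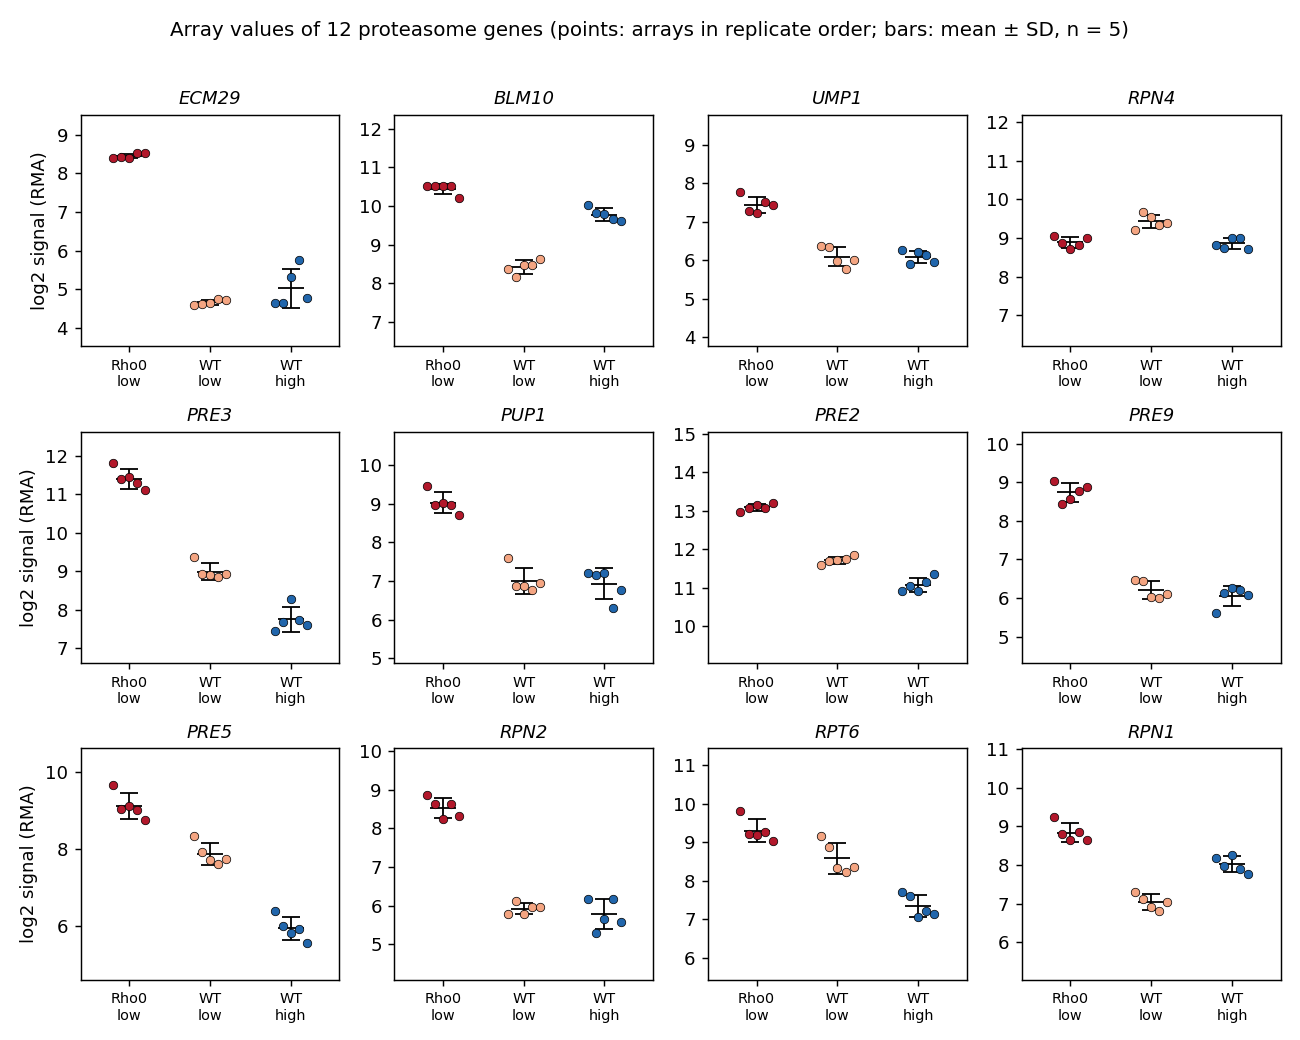
Log2 signal (y axis, a span of 6 log2 in every panel) of 12 genes on the arrays of Rho0 low density, WT low density and WT high density. Points are arrays in the order of their replicate number, bars are mean ± SD (n = 5). ECM29, BLM10, PRE3 and RPN2 are highest in Rho0 low density on all arrays, whereas RPN4 is highest in WT low density.

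The helpers held both the largest rise and the only fall. ECM29 (YHL030W), for a protein that tethers the core to the regulatory particle, read 8.40, 8.42, 8.40, 8.52 and 8.52 in Rho0 low density. It read 4.59, 4.61, 4.63, 4.75 and 4.72 in WT low density and 4.63, 4.64, 5.31, 5.76 and 4.77 in WT high density. WT low density and WT high density overlapped, with WT high density replicates 3 and 4 above the rest. Its difference between Rho0 and WT low density was 13.8-fold (3.79 ± 0.17 log2, adjusted p = 1.64e-12) and ranked 2 from the top of all 5449 genes in that comparison.

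RPN4 (YDL020C), for the transcription factor of the proteasome genes, moved the other way. It read 9.05, 8.88, 8.71, 8.83 and 9.0 on the Rho0 low density arrays, against 9.21, 9.68, 9.54, 9.34 and 9.38 on the WT low density arrays and 8.81, 8.75, 9.01, 8.99 and 8.72 on the WT high density arrays. All WT low density values lay above those of the other groups. Rho0 low density was 1.45-fold lower than WT low density (-0.54 ± 0.12 log2, adjusted p = 4.97e-04), and the difference turned to 0.14 log2 (adjusted p = 0.517) with arrays shifted to the same poly-A spike-in mean. Against WT high density, Rho0 low density differed by 0.04 ± 0.12 log2 (adjusted p = 0.788), and passed as higher with the spike-in shift (0.49 log2, adjusted p = 0.0374). The median over all genes under that shift was 0.94 log2 against WT low density and 0.48 against WT high density.

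BLM10 (YFL007W), for an activator that caps the core in place of the regulatory particle, read 10.51, 10.51, 10.51, 10.51 and 10.22 in Rho0 low density, against 8.37, 8.15, 8.46, 8.46 and 8.64 in WT low density and 10.04, 9.81, 9.80, 9.66 and 9.60 in WT high density. The 3 groups did not overlap, and WT low density was the lowest. The difference of Rho0 low density from WT low density was 4.10-fold (2.03 ± 0.12 log2, adjusted p = 4.96e-11). UMP1 (YBR173C), for a chaperone of core assembly that the finished core digests, read 7.76, 7.28, 7.23, 7.51 and 7.44 in Rho0 low density, against 6.36, 6.34, 5.99, 5.78 and 6.0 in WT low density and 6.26, 5.90, 6.21, 6.13 and 5.96 in WT high density. Its Rho0 values were above all others, by 2.55-fold over WT low density (1.35 ± 0.14 log2, adjusted p = 7.74e-08).

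**Figure D3:**
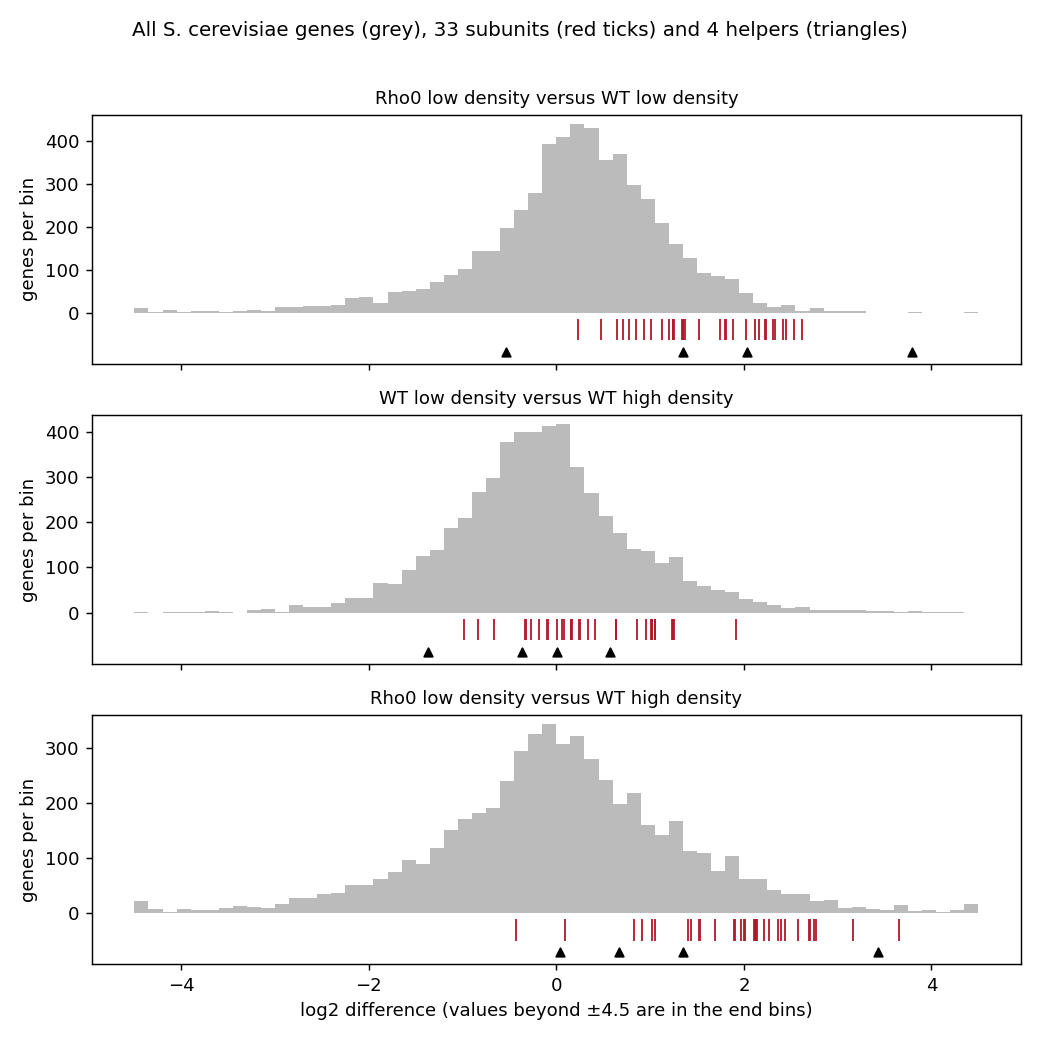
Number of genes (y axis) by log2 difference (x axis) in the 3 comparisons, for all 5449 genes (grey bars), the 33 subunits (red ticks) and the 4 helpers (triangles). In the top panel the subunits lie between 0.23 and 2.62 log2 and ECM29 at 3.79, in the middle panel the subunits spread from -0.98 to 1.92 on both sides of 0, and in the bottom panel from -0.43 to 3.65.

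The second comparison asked how light and dense cells of the wild type differ, and its calls fell on both sides. Of the 37 genes 16 rose in WT low density and 5 fell, while 26.2% of all genes rose and 41.1% fell. Without overlap of the groups, 15 members were higher (19.6% of all genes) and 2 were lower (28.3% of all genes). At least 2-fold, 9 members rose (11.7% of all genes) and 1 fell (16.3% of all genes). The median over the 37 was 0.17 log2, against -0.17 over all genes, and it turned to -0.06 with arrays shifted to the same poly-A spike-in mean. The counts became 11 up and 8 down under that shift, and 16 up and 2 down with arrays shifted to the same median of all genes. Of all 5449 genes, 880 rose and 2462 fell with the spike-in shift, with a median of -0.40 log2. With the shift to the same median, 1659 rose and 1896 fell. Transcripts of a cells, the mating type of the strain, were higher in WT low density in 5 of 5 cases, and those of alpha cells and of sporulating cells were lower in 4 of 4 and in 5 of 6 cases. Their group means ran from 2.26 to 8.97 in WT low density and from 2.82 to 10.27 in WT high density for the alpha list, and from 2.20 to 6.74 and from 2.55 to 8.50 for the sporulation list. In Rho0 low density against WT low density 3 of the 5 a cell transcripts were lower and 1 higher, 2 of the 4 alpha transcripts were lower, and 3 of the 6 sporulation transcripts were higher. Of all genes 44.6% were higher and 22.7% lower in that comparison. MF(ALPHA)1 and SPS1 stayed under the background level in both low density groups, SPO11 in both WT groups and BAR1 in WT high density. Group means of the a cell list ran from 3.65 to 11.62 in WT low density and from 2.40 to 9.64 in WT high density. The part of these transcripts in the proteasome values was not tested.

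Of the 14 core particle genes 8 rose and 1 fell in WT low density against WT high density (26.2% and 41.1% of all genes). PRE5 (YMR314W), for an alpha subunit, made the largest rise of the 37 genes between the WT groups. It read 9.65, 9.02, 9.11, 9.0 and 8.75 on the Rho0 low density arrays, 8.33, 7.93, 7.70, 7.60 and 7.74 on the WT low density arrays, and 6.39, 6.0, 5.82, 5.93 and 5.56 on the WT high density arrays. The 3 groups stood apart, and WT low density exceeded WT high density by 3.78-fold (1.92 ± 0.18 log2, adjusted p = 2.8e-08). Among the beta subunits PUP3 (1.24 ± 0.22), PRE3 (1.24 ± 0.16), PRE4 (1.02 ± 0.16), PRE7 (0.95 ± 0.16) and PRE2 (0.63 ± 0.11) rose, of which PRE2 did not pass with the spike-in shift (0.40 log2, adjusted p = 0.058). PUP1 (0.08 ± 0.19, adjusted p = 0.729) and PRE1 (0.17 ± 0.16, adjusted p = 0.363) did not pass.

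PUP3 (YER094C), for a beta subunit without an active site, read 9.56, 8.76, 8.99, 8.75 and 8.85 in WT low density and 7.96, 7.81, 8.27, 7.50 and 7.16 in WT high density. The groups did not overlap (adjusted p = 6.37e-05). SCL1 (YGL011C), the alpha subunit gene whose values spread most, fell by 0.84 ± 0.36 log2 (adjusted p = 0.0469) while its groups overlapped. It no longer passed without Rho0 low density replicate 2, 4 or 5, WT low density replicate 2, 3, 4 or 5, or WT high density replicate 1, 2 or 4, and its adjusted p reached 0.148. The fall was also lost under quantile normalization (-0.63 log2, adjusted p = 0.112) and with the same median of all genes (-0.72 log2, adjusted p = 0.0717). The rise of PUP2, for another alpha subunit, no longer passed without WT low density replicate 1, 2, 4 or 5 or WT high density replicate 2, 4 or 5 (adjusted p up to 0.0926), nor with the poly-A spike-in shift (0.18 log2, adjusted p = 0.507) or a shift to equal S. pombe medians (0.33 log2, adjusted p = 0.0952).

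In the base 6 of 10 genes rose and 1 fell (26.2% and 41.1% of all genes). RPT6 (YGL048C), for an Rpt ATPase, read 9.15, 8.89, 8.33, 8.24 and 8.35 in WT low density, against 7.71, 7.60, 7.05, 7.21 and 7.13 in WT high density. Every WT low density array was higher, by 2.39-fold on average (1.25 ± 0.19 log2, adjusted p = 1.36e-05). RPT5 (1.05 ± 0.10), RPT1 (1.01 ± 0.12) and RPT2 (0.64 ± 0.15) rose as well, of which RPT2 did not pass with the spike-in shift (0.41 log2, adjusted p = 0.0985). So did RPN10 (1.05 ± 0.24) and RPN13 (1.02 ± 0.15), for ubiquitin receptors of the base. RPN1 (YHR027C), for the other large scaffold subunit, read 7.31, 7.12, 6.90, 6.80 and 7.04 in WT low density, against 8.18, 7.98, 8.26, 7.90 and 7.76 in WT high density. It was lower on every WT low density array, by 1.97-fold (-0.98 ± 0.14 log2, adjusted p = 6.28e-06). RPN2, its structural relative, did not pass (0.15 ± 0.17, adjusted p = 0.431).

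Of the 9 lid genes 1 rose and 2 fell (26.2% and 41.1% of all genes). The rise was that of RPN11 (0.33 ± 0.11 log2, adjusted p = 0.0124), and the falls were those of RPN8 (-0.67 ± 0.25, adjusted p = 0.0268) and SEM1 (-0.34 ± 0.12, adjusted p = 0.020), for a small subunit that binds other lid proteins together. RPN8 no longer passed without WT low density replicate 5 or WT high density replicate 1, 2 or 4, and SEM1 without WT high density replicate 2 or 5. The rise of RPN11 was lost with the spike-in shift (0.10 log2, adjusted p = 0.644), the fall of SEM1 with the same median of all genes (-0.21 log2, adjusted p = 0.134), and that of RPN8 with that median (-0.54 log2, adjusted p = 0.0555) and under quantile normalization (-0.46 log2, adjusted p = 0.109). The lid median was -0.18 log2, next to 0.25 for the alpha ring, 0.95 for the beta ring and 0.83 for the base. These medians were not tested against each other. RPN12 had no overlap between the groups but did not pass (0.25 ± 0.18, adjusted p = 0.244). It passed without Rho0 low density replicate 1 (adjusted p = 0.0353) and under quantile normalization (0.53 log2, adjusted p = 0.0138). RPN3 passed as lower without Rho0 low density replicate 1 or 3 or WT high density replicate 1 (-0.40 log2, adjusted p = 0.0205, without the last), and in 5 fits with all replicates (adjusted p of 0.0236 to 0.047). RPN5, for another lid subunit, passed as lower with the spike-in shift (-0.50 log2, adjusted p = 0.042).

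**Figure D4:**
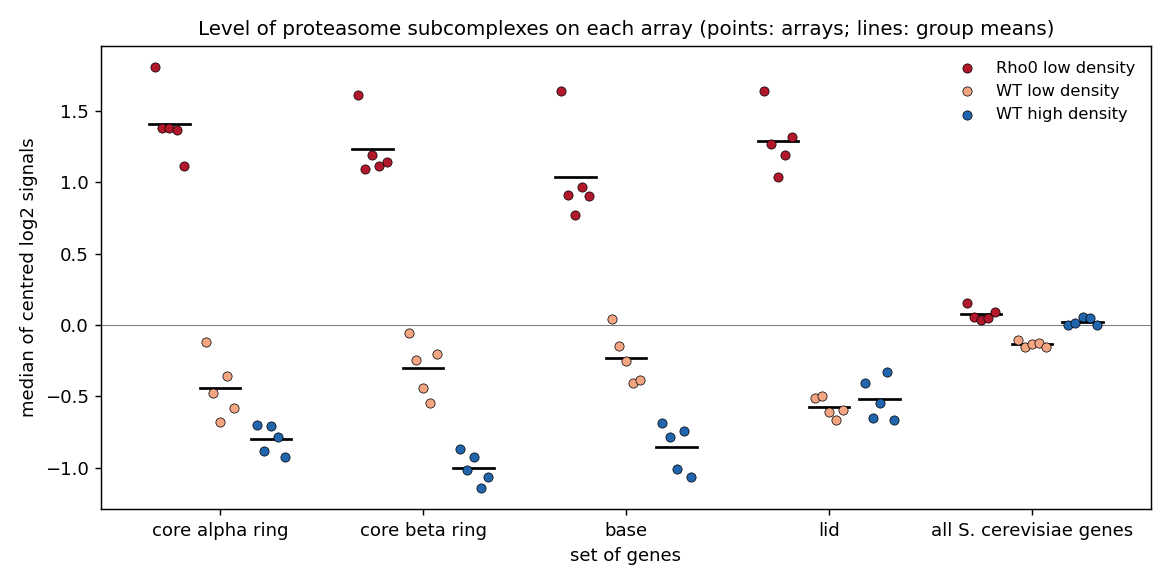
Median over the genes of a subcomplex of the log2 signal minus each gene's mean over 15 arrays (y axis), for 4 subcomplexes and all genes (x axis). Points are arrays, lines are group means. The Rho0 low density arrays lie at 0.77 or above in every subcomplex; WT low density lies above WT high density in the alpha ring, the beta ring and the base, and these WT groups overlap in the lid.

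Of the helpers, BLM10 was the member that fell most in WT low density, by 2.58-fold (-1.37 ± 0.12 log2, adjusted p = 1.06e-08). RPN4 was 1.49-fold higher in WT low density (0.57 ± 0.12, adjusted p = 2.75e-04), and no longer passed with arrays shifted to the same poly-A spike-in mean (0.34 log2, adjusted p = 0.15). UMP1 (0.00 ± 0.14, adjusted p = 0.986) and ECM29 (-0.37 ± 0.17, adjusted p = 0.0695) did not pass. ECM29 passed as lower when WT high density replicate 1, 2 or 5 was left out, with an adjusted p = 0.0248 without replicate 1. With all replicates it passed as lower with the spike-in shift (-0.59 log2, adjusted p = 0.0351) and with the same S. pombe median (-0.44 log2, adjusted p = 0.0334). It also did so with the replicate block (-0.37 log2, limma, adjusted p = 0.0477).

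The third comparison set Rho0 low density against WT high density and shares its arrays with the other comparisons, so it is not a further line of evidence. Of the 37 genes 34 rose and 0 fell (limma, adjusted p under 0.05; also 0 at an unadjusted p under 0.05), while 37.9% of all genes rose and 34.4% fell. The 3 members that did not pass were SCL1, RPN8 and RPN4. The median was 2.02 log2 (4.04-fold), against 0.03 over all genes, and 31 of the 37 rose at least 2-fold (20.4% of all genes). For the 34 called members no Rho0 array overlapped with WT high density (31.4% of all genes were higher and 27.5% lower without overlap).

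The largest differences were those of PRE3, 12.6-fold (3.65 ± 0.16 log2, adjusted p = 4.09e-13), ECM29, 10.8-fold (3.43 ± 0.17, adjusted p = 2.16e-12), and PRE5, 8.96-fold (3.16 ± 0.18, adjusted p = 1.2e-11). Set side by side, PRE3 differed by 2.41 log2 between Rho0 and WT low density and by 1.24 between WT low and WT high density, whereas ECM29 differed by 3.79 and -0.37. BLM10, with 2.03 and -1.37, stood 0.67 ± 0.12 log2 higher in Rho0 low density than in WT high density (adjusted p = 5.36e-05). SCL1 was at 0.09 ± 0.36 (adjusted p = 0.824). RPN8 was at -0.43 ± 0.25 (adjusted p = 0.131), and passed as lower without Rho0 low density replicate 1 (adjusted p = 0.0274) or WT high density replicate 5, with the same median of all genes (-0.58 log2, adjusted p = 0.0383) and under quantile normalization (-0.56 log2, adjusted p = 0.0496). It also passed as lower with the replicate block (limma, adjusted p = 0.0192).

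Replicate 1 of the Rho0 low density arrays stood apart from its group in these genes. It held the highest value of its group for 31 of the 37 genes (83.8%), next to 41.7% of all genes. In the WT low density group replicate 1 was highest for 18 of 37 (48.6%, and 31.3% of all genes), and in the WT high density group for 14 of 37 (37.8%, and 20.7%). The median of the 33 subunits, each centred on its mean over 15 arrays, was 1.64 log2 on Rho0 low density replicate 1 and between 1.09 and 1.12 on the other 4 arrays of that group. It ran from -0.54 to -0.28 in WT low density and from -0.88 to -0.71 in WT high density, so that the groups did not overlap. Without replicate 1 in all groups, a choice made after seeing the data, 35 members rose and 1 fell in Rho0 low density against WT low density, with a median of 1.37 log2. WT low density against WT high density then had 16 up and 8 down, with RPN3, RPN9 and ECM29 added to the falls. The third comparison had 34 up and 0 down, with a median of 1.92. Of all 5449 genes, 2359 then rose and 1196 fell in the first comparison, 1381 and 2283 in the second, and 1978 and 1884 in the third.

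**Figure D5:**
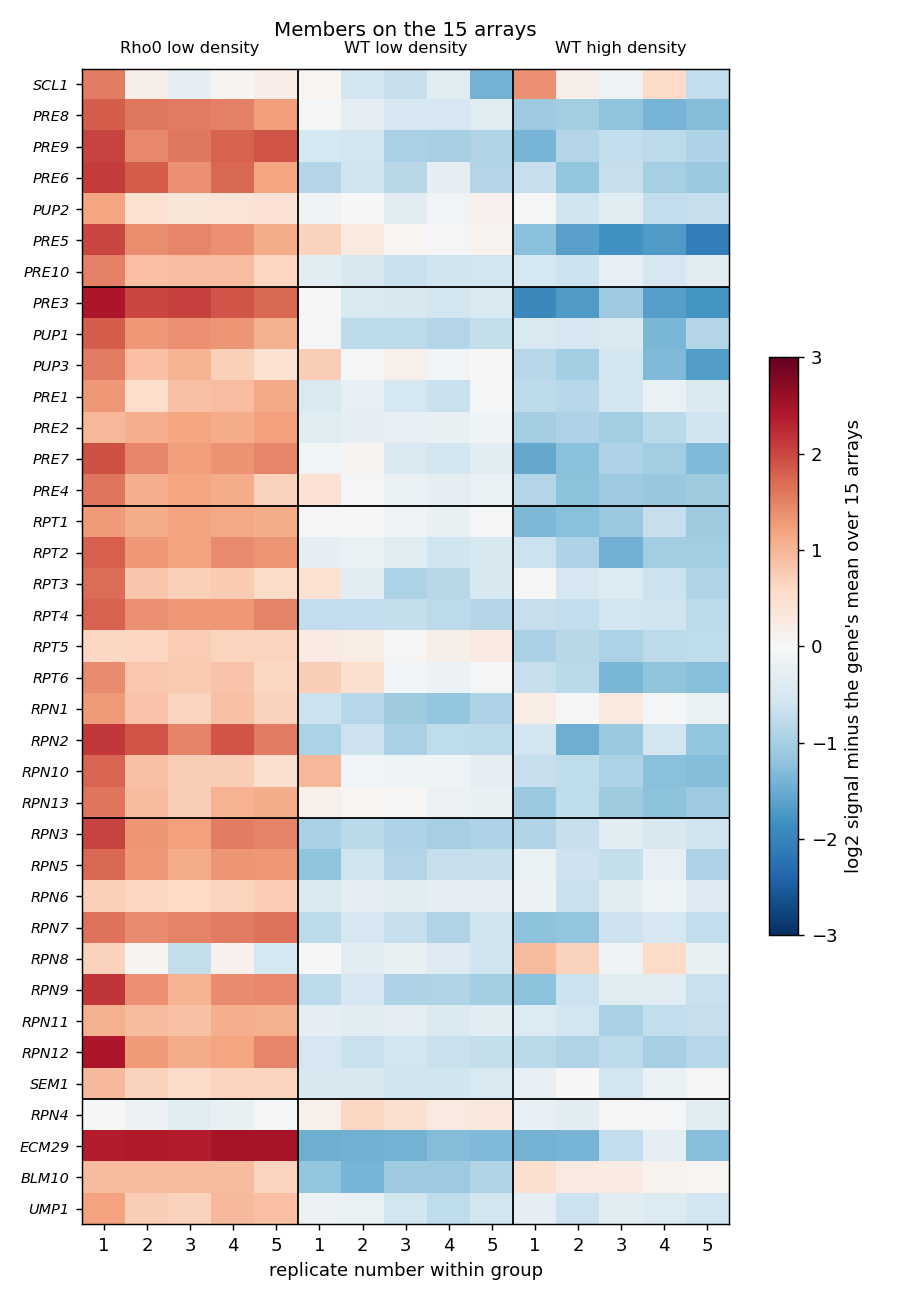
Log2 signal minus the gene's mean over 15 arrays (colour) for the 37 genes (rows, parted by lines into alpha ring, beta ring, base, lid and helpers) on the 15 arrays (columns). The Rho0 low density columns are red in nearly all rows, with replicate 1 reddest in most; SCL1, RPN8 and RPN4 are the rows without this pattern.

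Other genes of the pathway were read from lists beside the 37. In Rho0 low density against WT low density, 7 of 9 proteasome assembly chaperone genes rose and 1 fell (44.6% and 22.7% of all genes), led by TMA17 (2.35 ± 0.18 log2), for a chaperone that helps pairs of Rpt subunits form, and PBA1 (1.94 ± 0.13), for a chaperone of the alpha ring. The fall was that of POC4 (-0.46 ± 0.13, adjusted p = 0.00471), for an alpha ring chaperone that works as a pair with that of IRC25, which rose (1.11 ± 0.18). NAS6 did not pass (-0.28 ± 0.12, adjusted p = 0.0518). In WT low density against WT high density 5 of the 9 rose and 1 fell (26.2% and 41.1% of all genes), with RPN14, for a chaperone of the base, at 1.77 ± 0.16 and IRC25 at -0.81 ± 0.18. Rho0 low density against WT high density had 6 rises and 1 fall (37.9% and 34.4% of all genes), with TMA17 at 3.12 ± 0.18 and RPN14 at 2.90 ± 0.16.

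Genes for ubiquitin receptors and enzymes that work with the proteasome rose in 7 of 8 cases when Rho0 low density was set against WT low density (44.6% of all genes). In WT low density against WT high density 5 of the 8 rose (26.2% of all genes). There were 0 falls in either, by limma at an adjusted p under 0.05 and also 0 at an unadjusted p under 0.05. DDI1, for a shuttle receptor, rose by 2.20 ± 0.20 and 1.82 ± 0.20 log2 in these comparisons and averaged 8.45 ± 0.30 in Rho0 low density, 6.25 ± 0.33 in WT low density and 4.43 ± 0.40 in WT high density (mean ± SD, n = 5). UBP6, for the deubiquitinase that docks on Rpn1, rose by 2.04 ± 0.13 in Rho0 low density against WT low density. CDC48, for the ATPase that pulls ubiquitinated proteins out of complexes, rose by 1.98 ± 0.11 in WT low density against WT high density. Against WT high density all 8 rose in Rho0 low density (37.9% of all genes), DDI1 most (4.02 ± 0.20) and CDC48 next (2.76 ± 0.11).

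The factors encoded by HSF1, PDR1, PDR3 and YAP1 are known to activate RPN4, and those of UBR2, MUB1 and RAD6 to mark the Rpn4 protein for destruction. Rho0 low density against WT low density had 3 rises and 2 falls among the 7, shares near those of all genes (44.6% and 22.7%), with RAD6, for the ubiquitin-conjugating enzyme, at -2.17 ± 0.15 log2 and YAP1, for an oxidative stress factor, at 2.06 ± 0.17. In both, WT low density had the outlying mean. YAP1 averaged 4.97 ± 0.23 in Rho0 low density, 2.91 ± 0.18 in WT low density and 4.82 ± 0.41 in WT high density. RAD6 averaged 3.66 ± 0.05 in Rho0 low density, 5.83 ± 0.20 in WT low density and 3.96 ± 0.37 in WT high density. WT low density against WT high density had 4 rises and 2 falls (26.2% and 41.1% of all genes), with YAP1 at -1.91 ± 0.17 and RAD6 at 1.87 ± 0.15, and Rho0 low density had 3 rises and 1 fall against WT high density (37.9% and 34.4% of all genes), with UBR2, for the ubiquitin ligase, at 2.17 ± 0.15 and PDR3 at 1.33 ± 0.13.

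Of 5 genes tied to the location and turnover of proteasomes, 0 rose and 2 fell in Rho0 low density against WT low density, while 44.6% and 22.7% of all genes did (limma, adjusted p under 0.05; 1 was higher at an unadjusted p under 0.05). These were SPG5 (-1.01 ± 0.11 log2), for a proteasome regulator of stationary phase, and FUB1 (-0.41 ± 0.12), for an inhibitor of the core. In WT low density against WT high density STS1, for a protein that brings proteasomes to the nucleus, rose by 1.79 ± 0.16 and FUB1 fell by 1.89 ± 0.12 log2, and the other 3 did not pass (26.2% of all genes rose and 41.1% fell). FUB1 averaged 10.86 ± 0.22 in Rho0 low density, 11.27 ± 0.13 in WT low density and 13.16 ± 0.10 in WT high density. In Rho0 low density against WT high density 1 rose, STS1 (2.05 ± 0.16), and 3 fell, FUB1 most (-2.30 ± 0.12), while 37.9% of all genes rose and 34.4% fell.

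The 37 genes are spread over the chromosomes, and no 2 of them are direct neighbours in the reference gene order. Of the 72 protein-coding genes next to them 69 were measured. In Rho0 low density against WT low density 39 of the 69 rose and 8 fell, with a median of 0.44 log2, next to 44.6% and 22.7% of all genes and their median of 0.25. In WT low density against WT high density 20 rose and 34 fell, with a median of -0.30, next to 26.2% and 41.1% of all genes and their median of -0.17, and in Rho0 low density against WT high density 28 rose and 21 fell, with a median of 0.13, next to 37.9% and 34.4% of all genes and their median of 0.03. PRE4 and RPN12 lie on either side of RET2, for a coat protein of transport vesicles, which rose by 0.87 log2 in Rho0 low density against WT low density, less than both (1.20 ± 0.16 and 2.12 ± 0.18). RPT4 and RPN8 lie on either side of GCD1, for a subunit of a translation initiation factor, which rose by 0.98 log2 in that comparison, less than RPT4 (2.22 ± 0.11) and more than RPN8 (0.23 ± 0.25, not called).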

How the data were processed

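The authors deposited log2 signals per probe set, summarised with RMA; the submitters' processing notes name this method and Affymetrix Expression Console without versions. Values ran from 1.28 to 14.6 over 10928 probe sets and 15 arrays, and 0 columns went unused. The annotation named 1 gene for 7244 probe sets, several for 1 and none for 3683. By gene ID, 5498 belonged to Saccharomyces cerevisiae and 1746 were taken as Schizosaccharomyces pombe. For 47 genes with several probe sets, none of them a member, the brightest was kept, which left 5449. ADC17 was read as TMA17.

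A model with 1 mean per group was fitted across the 15 arrays (lmFit and eBayes of limma 3.58.1 in R 4.3.3, 12 residual degrees of freedom), with Benjamini-Hochberg adjustment over 5449 genes and a threshold of 0.05. The fit was also run on simulated data with independent noise in each gene and changes in a small part of the genes. Far more genes were called here, so that run does not give the rate of false calls in these data. The number of arrays limits the precision (median SE 0.15 log2). A p-value sets a difference against the spread between arrays within groups, pooled over all groups, also the one not compared. The labels do not say whether arrays with the same replicate number in different groups belong together.

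The members, subgroups, pathway lists and tests were chosen with earlier results of these data known, so that no list is independent support. Array values are given for the helpers, the 3 catalytic subunits and the 3 largest called differences each way without overlap in each comparison. RPN8 array values, and the other members named with differences only, were chosen after their values were seen. Of each pathway list, the 2 called genes with the largest differences are named, with POC4, NAS6 and IRC25 named after their values were seen. Alternatives were the 10 arrays compared, the replicate block, a trend with robust eBayes, a filter on dim genes, 4 other scalings, the mean of probe sets and each array left out. Promoter motifs were not analysed here, and no build is given for coordinates.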

Additional observations from a re-analysis of the deposited data

Results flagged for a closer look

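The 111 sets of 5 arrays (37 genes in 3 groups) were screened for a highest or lowest array far from the next. In 11 of them its gap to the next, divided by the range, exceeded Dixon's critical value. Chance alone marks about 1 in 20 independent sets. These sets share their arrays and are not independent, so their count cannot be read against that rate. In 9 of the 11 the array was replicate 1 of a low density group, and it was the high one. In Rho0 low density, replicate 1 read 6.71 for SCL1 (next 5.38), 7.29 for PUP2 (next 6.56), 8.07 for RPT3 (next 7.22), 9.82 for RPT6 (next 9.26) and 7.61 for RPN12 (next 6.64). In WT low density, replicate 1 read 9.38 for PRE3 (next 8.92), 7.60 for PUP1 (next 6.94), 8.10 for PRE4 (next 7.59) and 7.96 for RPN10 (next 6.87). PRE9 was low at 5.60 on WT high density replicate 1 (next 6.07). BLM10 was low at 10.22 on Rho0 low density replicate 5, while the other 4 arrays all read 10.51.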

How the results depend on the processing

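The counts were 35 up and 1 down in the first comparison (Rho0 low density, WT low density), 16 and 5 in the second (WT low density, WT high density), and 34 and 0 in the third (Rho0 low density, WT high density). With the replicate block they were 35 and 1, 16 and 6, and 34 and 1. Same-numbered arrays correlated between -0.05 and 0.37 in their deviations from group means, against -0.47 to 0.35 for arrays with different numbers. At most 3 of 5 correlated best with their own number, so the numbers were not taken as pairs in the main fit. With arrays shifted to the same median of all genes, the median of the first comparison was 1.11, 2 members were lower in the second and 1 in the third. With arrays shifted to the same poly-A spike-in mean, 0 members were lower in the first (limma; RPN4 stood at 0.14 log2), its median was 2.05, 8 were lower in the second with a median of -0.06, and the median of the third was 2.47. Quantile normalization over S. cerevisiae genes gave 1 lower in the third, which was RPN8 in each case. Leaving out 1 array, or replicate 1 of every group, gave 34 to 35 higher, 1 to 1 lower and a median of 1.37 to 1.56 in the first comparison, 15 to 17 higher, 3 to 8 lower and 0.13 to 0.25 in the second, and 34 to 34 higher, 0 to 1 lower and 1.92 to 2.14 in the third. The second had 8 lower without replicate 1 of every group and 3 lower without WT low density replicate 5 or WT high density replicate 2 or 4. The causes were not tested. The median over all genes moved to 0.94, -0.40 and 0.48 in the 3 comparisons with the spike-in shift, and the split of all called genes in the first was 3955 higher and 464 lower, next to 2430 and 1235 as reported and 1728 and 1775 with the shift to the same median. In the second the split was 880 and 2462 with the spike-in shift, next to 1425 and 2238 as reported and 1659 and 1896 with the same median. Over the alternatives with all replicates, 949 values of single members kept direction and call, 15 passed only there, 14 no longer passed and 21 turned sign, of which RPN4 in the first comparison was the one that had passed. The spike-in shift turned, in the second, PRE9 (-0.073), PUP1 (-0.149), PRE1 (-0.060), RPT3 (-0.169), RPN2 (-0.076), RPN6 (-0.221), RPN7 (-0.071) and UMP1 (-0.227), and RPN8 in the third (0.018). The S. pombe median turned RPT3 (-0.017), RPN6 (-0.069) and UMP1 (-0.074) in the second. The same median of all genes turned RPN8 in the first (-0.034), PRE10 (0.035) and RPT4 (0.020) in the second, and SCL1 (-0.048) and RPN4 (-0.105) in the third. Quantile normalization turned RPN8 in the first (-0.098) and SCL1 (-0.044) and RPN4 (-0.001) in the third. Leaving out 1 array, or replicate 1 of every group, gave ranges across 0 in the second for PRE9 (-0.025 to 0.210), PUP1 (-0.078 to 0.152), RPT3 (-0.158 to 0.190), RPN6 (-0.075 to 0.075) and UMP1 (-0.063 to 0.080), and in the third for SCL1 (-0.204 to 0.375) and RPN4 (-0.016 to 0.083). None of these turned values passed.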
